A study of Mus musculus and Homo sapiens with 23 samples.

Results

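The Myc and Mad network was described here through the RNA of 9 genes, Myc, Max, Mxd1, Mxd3, Mxd4, Mxi1, Mnt, Mlx and Mlxip, taken as named members of this family of dimerising factors and their partners. They were 9 of 21586 genes in the deposited tables, held in 16 transcript rows, and all 9 reached 1 FPKM (a fragment count divided by transcript length and by the size of the library) in at least one library, as did 10030 genes in all. RNA came from BV2 cells, a mouse microglia line, either left unstimulated or given lipopolysaccharide (LPS, a bacterial cell wall component) for 3 h, with 1 library per group. No strain, dose, genotype or further agent is named for these cells in the labels. The series lists 23 samples and was built around a histone mark, H2BK20ac, in several cell types and in stimulated microglia. Its other 21 samples are chromatin samples and were not used here. BV2 is a single immortalised line, known to have been made with a retrovirus that carries v-raf and v-myc oncogenes, so that its cells hold a viral relative of Myc. Whether fragments of the viral gene entered the values of Myc was not tested.

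MYC is a transcription factor of the basic helix-loop-helix leucine zipper class that binds the E-box, a short DNA word, only as a dimer with MAX, and it drives genes of growth and division. The Mad proteins, encoded by Mxd1, Mxi1, Mxd3 and Mxd4, and the related MNT compete for MAX, bind the same E-boxes and recruit the SIN3 and histone deacetylase corepressors. MLX is a MAX-like protein that pairs with MLXIP (MondoA), a sensor of glucose metabolites, and also with some Mad proteins and MNT. In macrophages, LPS is known to slow division while it turns on inflammatory genes.

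The E-box CACGTG, which reads the same on both strands, was looked for in RefSeq promoter windows of assembly GRCm38.p6, each 300 bases long with 250 before and 50 after the start of the gene. Of the 9 genes, 8 had at least one window and Myc had none in the table. The E-box was found for Max, Mlx, Mnt and Mxd4, that is for 4 of 8, and for 8.09% of all 27025 genes with a window. These 4 stretches are shown because they are where the network's own binding word lies beside its own genes, printed 5′ to 3′ along each gene's strand with the E-box in capitals.
Max: tgagcccggtCACGTGttagggggcc
Mlx: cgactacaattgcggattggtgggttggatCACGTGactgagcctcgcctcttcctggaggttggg
Mnt: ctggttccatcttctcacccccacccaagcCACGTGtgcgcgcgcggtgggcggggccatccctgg
Mxd4: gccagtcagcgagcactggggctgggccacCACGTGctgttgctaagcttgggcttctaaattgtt
The Max stretch lies at chr12:76962236-76962261 on the minus strand and spans the start itself, with the E-box from base -3 to base 3 counted without a base 0. The Mlx stretch lies at chr11:101087220-101087285 on the plus strand, with the E-box 34 bases before the start. The Mnt stretch lies at chr11:74830771-74830836 on the plus strand, with 117 bases between the E-box and the start. The Mxd4 stretch lies at chr5:34187894-34187959 on the minus strand, with 213 bases in between. The windows of Mxd1, Mxd3, Mxi1 and Mlxip did not hold these letters. A match describes the sequence and says nothing of binding in these cells.

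The tables held 28246 rows per library, and the fragments implied by the intervals of rows with status OK summed to about 13800000 for unstimulated cells and 16900000 for LPS. All 8 genes of a list that checks the LPS label rose, among them Nfkbia from 7.48 to 454 FPKM. A change is given as log2(FPKM + 1) in the LPS library minus that in the unstimulated library, and a gene was called higher or lower when this reached 1 in size, a fold of 2 on this scale, which the added 1 shrinks for low genes. By this rule 857 of 10030 genes (8.54%) were higher and 1245 (12.4%) lower. The deposited intervals, combined over rows for genes with more than 1 row, were separate for 73.5%. The median change was -0.24. Of the genes called, 40.8% were higher with FPKM as deposited. The share was 24.7% with TPM, 59.4% with median scaling and 53.1% with quantile normalisation, and these scalings moved the median by -0.24, 0.24 and 0.11. Of 9 microglia and macrophage markers 8 had a row and all were expressed (summed FPKM 5948 and 5861), whereas 0 of 7 neuronal, 0 of 6 astrocyte and 0 of 6 oligodendrocyte markers reached 1 FPKM. Of 7 fibroblast and endothelial markers Kdr alone did (5.45 and 4.79 FPKM), and of 6 lymphocyte markers Il7r alone (1.77 and 0.591). Gfap, Rbfox3, Mog, Col1a1 and Cd3e were at 0 in both libraries. With 1 library per group every difference is one between these 2 libraries, without a replicate check or a p-value, and the intervals cover only counting and how fragments were assigned within each. Less RNA per cell and fewer cells that express a gene cannot be told apart.

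After LPS the RNA of Myc and of its antagonist Mxd1 rose, and the RNA of the antagonists Mxi1 and Mnt fell. These were 2 genes higher and 2 lower among 9, beside 8.54% and 12.4% of all counted genes. Max and Mxd4 lay just inside the rule on either side, with changes of 0.91 and -0.98. The intervals of both libraries were separate for 8 of the 9 genes, all but Mlx, beside 73.5% of all counted genes. The median change of the 9 was 0.07, with 5 above 0 and 4 below, beside -0.24 over all counted genes.

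**Figure D1:**
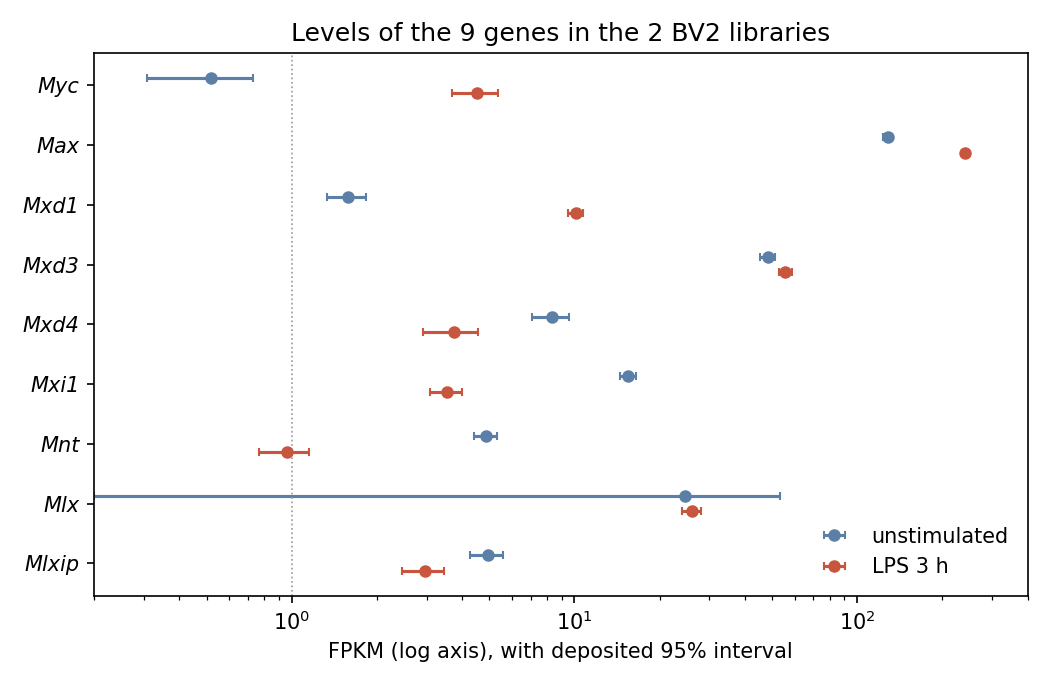
FPKM of the 9 genes on a log axis in the unstimulated (blue) and the LPS library (red), with a dotted line at 1 FPKM. Bars show the deposited 95% interval, combined over rows for genes with more than 1 row. Myc moved from 0.518 to 4.52 and Mnt from 4.87 to 0.959, while the unstimulated interval of Mlx, whose lower bound is 0, runs to the left edge of the axis.

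Myc, the activator of the network (mm9 chromosome 15, 61816896 to 61821916), was at 0.518 FPKM (0.307 to 0.730) in the unstimulated library and at 4.52 (3.69 to 5.35) in the LPS library. Both intervals were far apart, and the ratio was 8.72 (5.58 to 13.6). The combined intervals imply 24.0 and 118 fragments. This is fewer than the 25.0 and 150 of the more abundant of its 2 transcript rows alone, because the combination takes the rows as independent. On the log2(FPKM + 1) scale Myc rose by 1.86. Its unstimulated level was the lowest of the 9 genes and stood at percentile 1.69 of all counted genes. Counted genes reach 1 FPKM in either library, which Myc did only with LPS, so this low place follows in part from the filter. The 11556 genes not counted are left out of the percentiles. After LPS Myc stood at place 5 of the 9 and at percentile 39.2. With a pseudocount of 5 the change was 0.79 and short of the rule.

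The Myc value was split over 2 of the 4 curated RefSeq transcripts of the name table. NM_001177352 was at 0.518 (0.311 to 0.726) and 3.57 (2.98 to 4.15) FPKM, a ratio of 6.88 (4.46 to 10.6). NM_001177353 was at 1.3e-05 (0 to 0.0415) and 0.957 (0.365 to 1.55), so that it held 21.2% of the Myc value after LPS. Both rows carry the same locus in the tables, and no ratio is given for the second because its unstimulated value rests on less than 1 fragment.

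Max encodes the shared partner of MYC and its antagonists, without which MYC does not bind the E-box (mm9 chromosome 12, 78038256 to 78063235). It was by far the most abundant of the 9, at 128 FPKM (123 to 133) without and 241 (235 to 247) with LPS. The intervals were separate and the ratio was 1.88 (1.80 to 1.97). The change of 0.91 missed the size rule and depended on the scaling in both directions. Median scaling took it past the rule, to 1.20, whereas TPM gave 0.66 and quantile normalisation 0.60. Of its rows, NM_001146176 went from 70.3 to 134 FPKM and NM_008558 from 57.7 to 107. Their ratios of 1.91 (1.81 to 2.02) and 1.85 (1.72 to 1.98) overlapped, and the first row held 54.9% and 55.8% of the Max value.

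Among the Mad genes, Mxd1 rose (mm9 chromosome 6, 86597039 to 86619153). Its protein, MAD1, is known to accumulate as cells leave the cycle and differentiate. Mxd1 was at 1.58 FPKM (1.33 to 1.84) in the unstimulated and 10.1 (9.47 to 10.7) in the LPS library, with 155 and 1038 implied fragments. The intervals were separate, the ratio was 6.38 (5.37 to 7.57) and the change was 2.10. Mxd1 stayed past the rule under all 9 alternatives tried, with changes from 1.20 to 2.60.

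Mxi1, the Mad gene also called Mad2, went the other way (mm9 chromosome 19, 53384996 to 53450300). It fell from 15.5 FPKM (14.4 to 16.5) to 3.53 (3.07 to 3.99), 4.38-fold lower (3.78 to 5.06), a change of -1.86 with separate intervals. The 3 rows of Mxi1 begin at different positions of the locus. The row with the most upstream start, NM_001008542, was at 5.30 and 1.25 FPKM, and NM_001008543, the most abundant, was at 8.99 and 2.00. The third, NM_010847, was at 1.16 (0.867 to 1.44) and 0.285 (0.145 to 0.425). All 3 were lower after LPS by similar factors, 4.25, 4.50 and 4.06, and each kept its share of the Mxi1 value to within 2 percentage points, as with 58.2% and 56.6% for NM_001008543. Mxi1 stayed past the rule under all 9 alternatives, between -2.18 and -1.26.

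Mxd4 encodes the Mad protein typical of resting and differentiated cells (mm9 chromosome 5, 34519229 to 34530359). It was at 8.31 FPKM (7.06 to 9.56) and 3.73 (2.92 to 4.55), with 178 and 84.0 implied fragments. The intervals were separate and the value was 2.23-fold lower (1.71 to 2.90) without the pseudocount, but the change of -0.98 missed the size rule. It passed with TPM (-1.26) and with a smaller pseudocount of 0.1 (-1.13). It lay further inside with median scaling (-0.74), quantile normalisation (-0.73) and a pseudocount of 5 (-0.61).

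Mxd3, the Mad gene known to be expressed in dividing cells in S phase, had the highest level of the Mad genes in both libraries (mm9 chromosome 13, 55426529 to 55431091). It was at 48.2 FPKM (45.4 to 51.1) and 55.6 (52.7 to 58.6), a ratio of 1.15 (1.07 to 1.25) and a change of 0.20, whose sign turned after rescaling to TPM (-0.04). The Mxd3 locus overlaps that of Prelid1, a mitochondrial lipid transfer gene, by 105 bases. Prelid1 was at 406 and 510 FPKM, and whether its fragments entered the Mxd3 value was not tested.

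Mnt, an antagonist found in most tissues, where it opposes MYC throughout the cell cycle, fell below 1 FPKM (mm9 chromosome 11, 74644426 to 74659227). It went from 4.87 FPKM (4.42 to 5.32) to 0.959 (0.765 to 1.15), with 469 and 97.0 implied fragments. This was 5.08-fold lower (4.06 to 6.35), an interval that overlaps that of Mxi1, and the change was -1.58. Mnt stood at place 7 of the 9 before and at place 9 after LPS. With a pseudocount of 5 its change was -0.73 and short of the rule.

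**Figure D2:**
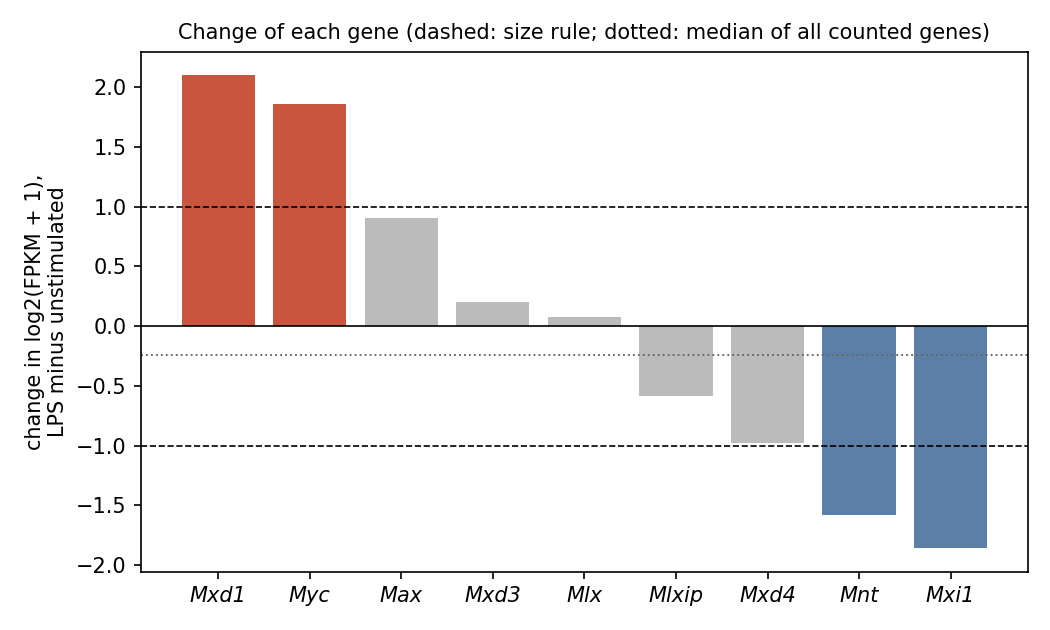
Change in log2(FPKM + 1), LPS minus unstimulated, for the 9 genes in order of size, with dashed lines at the size rule and a dotted line at the median of all counted genes (-0.24). Mxd1 and Myc pass the upper line and Mnt and Mxi1 the lower one, while Max (0.91) and Mxd4 (-0.98) end just inside.

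Of the MLX pair, neither gene passed the rule. Mlx was at 24.6 FPKM in the unstimulated and 26.0 (24.0 to 28.0) in the LPS library, a change of 0.07 (mm9 chromosome 11, 100948604 to 100953521). The unstimulated value has a combined interval of 0 to 53.1, because 2 of its 3 rows had wide intervals there: NM_001159385 was at 20.2 (0 to 41.3) and NM_011550 at 1.97 (0 to 21.1). For that reason no ratio of the sum is given. The combined interval takes the rows as independent although they share a locus, so the error of the sum itself is not known. Whether Mlx differed is not settled here. The third row, NM_001159384, was at 2.42 (1.68 to 3.16) and 4.08 (3.16 to 5.01), with intervals that just overlapped and a ratio of 1.69 (1.15 to 2.47). The Mlx locus overlaps that of Psmc3ip, a recombination gene, by 51 bases, and Psmc3ip was at 29.0 and 7.85 FPKM. The part of this overlap in the Mlx value was not tested.

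Mlxip, which encodes MondoA, the glucose-sensing partner of MLX (mm9 chromosome 5, 123844828 to 123907940), was at 4.93 FPKM (4.27 to 5.59) and 2.96 (2.46 to 3.46). The intervals were separate and the value was 1.67-fold lower (1.34 to 2.06), but the change of -0.58 did not reach the rule under any alternative tried. The row NM_133917 was at 2.24 and 1.19 FPKM with separate intervals. NM_177582, at 2.69 (2.09 to 3.29) and 1.77 (1.31 to 2.23), had overlapping ones.

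**Figure D3:**
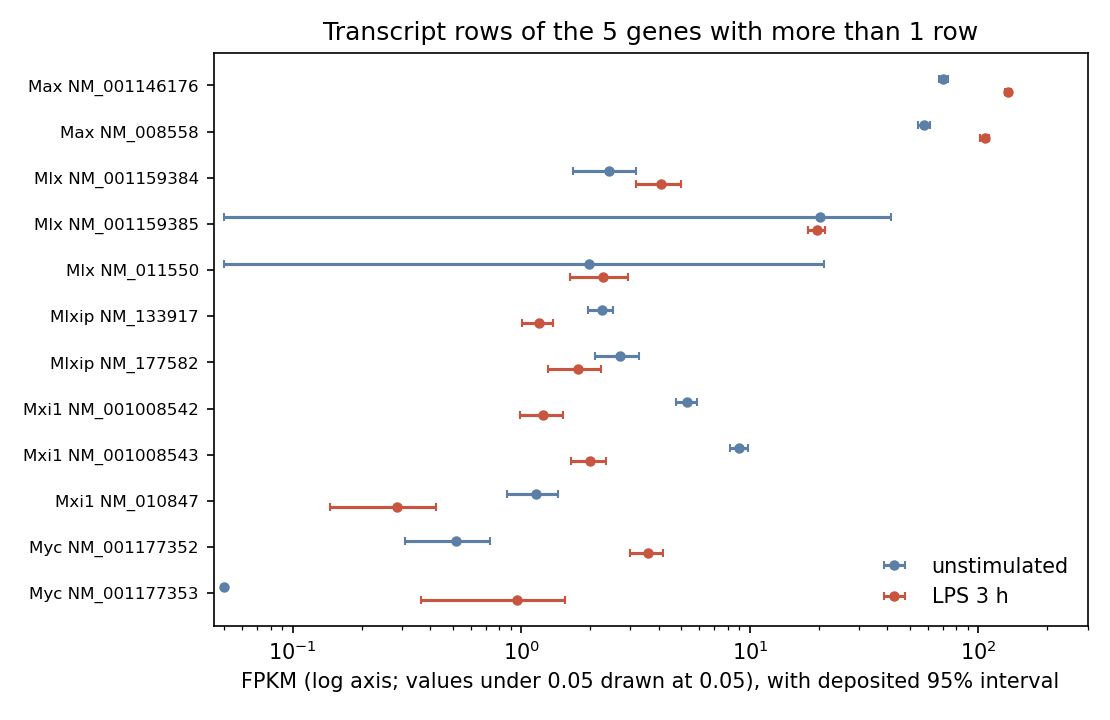
FPKM of each transcript row, on a log axis with its deposited 95% interval, for the 5 genes with more than 1 row (values under 0.05 are drawn at 0.05). The 3 rows of Mxi1 and the 2 rows of Max keep their spacing between the unstimulated (blue) and the LPS library (red), and the wide blue bars of Mlx belong to NM_001159385 and NM_011550.

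The order of the 9 levels differed between the libraries. FPKM is scaled to transcript length, so levels of genes can be set side by side. Unstimulated, the order from the top was Max, Mxd3, Mlx, Mxi1, Mxd4, Mlxip, Mnt, Mxd1 and Myc. The intervals of neighbours overlapped there between Mxd3 and Mlx, Mlx and Mxi1, and Mlxip and Mnt. After LPS it was Max, Mxd3, Mlx, Mxd1, Myc, Mxd4, Mxi1, Mlxip and Mnt, with overlapping neighbours from Myc to Mlxip. Mxd1 and Myc, the lowest pair before LPS, stood at places 4 and 5 after it.

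The RNA of the 6 genes whose proteins compete for MAX (Myc, Mxd1, Mxd3, Mxd4, Mxi1 and Mnt) summed to 79.0 FPKM in unstimulated cells and 78.5 after LPS, most of it Mxd3, and its makeup differed. Myc made up 0.657% (0.389 to 0.924) of the sum in the unstimulated and 5.76% (4.74 to 6.79) in the LPS library. Mxd1 went from 2.00% to 12.9%. Mxi1, Mxd4 and Mnt together went from 28.6 to 8.22 FPKM, and Mxi1 alone from 19.6% to 4.50% of the sum. Mxd3 made up 61.1% and 70.9% of the sum. Without Mxd3, an alternative added after the values were seen because of its overlap with Prelid1, the sum went from 30.7 to 22.8 FPKM and the Myc share was 1.69% and 19.8%. Max exceeded the sum of its 6 partners 1.62-fold in the unstimulated and 3.07-fold in the LPS library, or 4.16-fold and 10.5-fold without Mxd3. Against single antagonists, the Myc level was 0.106 times that of Mnt before and 4.71 times after LPS, and 0.0336 and 1.28 times that of Mxi1. It stayed below Mxd1, at 0.328 and 0.448 times its level. These are ratios of RNA, and protein was not measured.

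**Figure D4:**
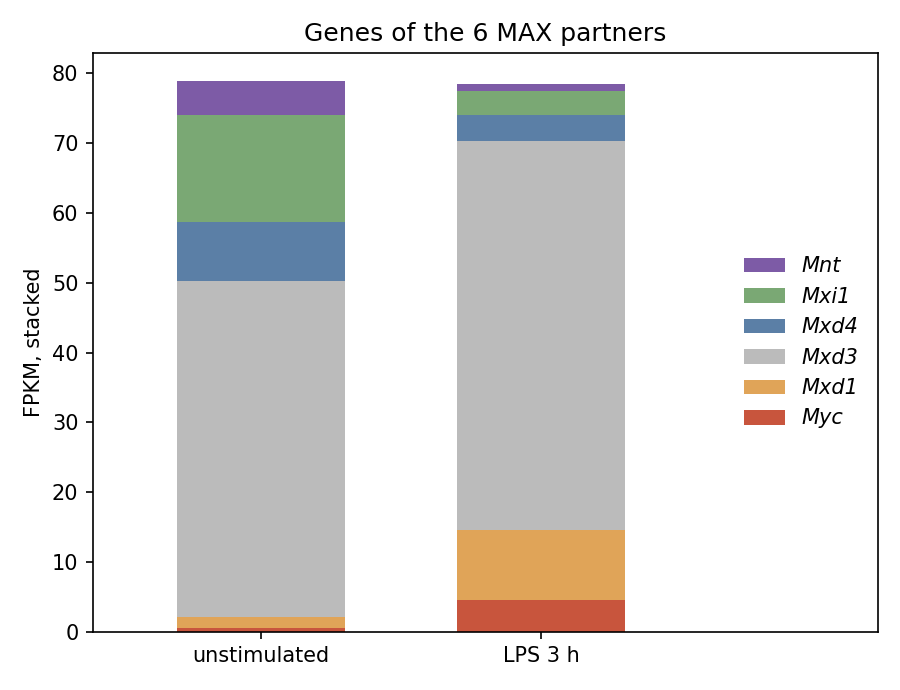
FPKM of the 6 genes whose proteins pair with MAX, stacked, in each library. The sums are 79.0 and 78.5, Myc (red) and Mxd1 (orange) take more of the LPS bar, and Mxi1 (green), Mxd4 (blue) and Mnt (purple) take less of it.

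The genes nearest to Myc in the plane of the 2 levels were Il20rb (0.560 and 4.17 FPKM), Pla1a (0.540 and 5.14) and 4933412E12Rik (0.696 and 4.39), at distances of 0.10 to 0.16 on the log2(FPKM + 1) scale. Those nearest to Mxd1, the antagonist with the largest change with a pseudocount of 1 (Mxi1 moved further with TPM, -2.18 against 2.09, and with a pseudocount of 5, -1.26 against 1.20), were Xkr8 (1.42 and 9.77), Ptafr (1.35 and 10.1) and Micall2 (1.59 and 9.01). Over 2 libraries such likeness describes 2 values only.

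Of the other genes of the network and of the Myc locus, 3 were too low to be counted and 1 passed the rule. Mycn was at 0 in both libraries, Mycl at 0 and 0.158 FPKM and Mlxipl, the relative of Mlxip known as ChREBP, at 0.0461 and 0. Of the 4 counted genes of this list of 7, 3 stayed within the rule, 0 rose and 1 fell (25%), beside 8.54% and 12.4% of all counted genes. Changes were below 0 for all 4, and for 64.2% of all counted genes. The gene that fell was Pvt1, a long non-coding RNA gene beside Myc, from 2.41 FPKM (2.02 to 2.80) to 0.680 (0.477 to 0.882), and it did so while Myc rose. Its change of -1.02 was at the edge of the rule and did not reach it under median scaling, under quantile normalisation or when the pseudocount was 5. Mga, which encodes another MAX-binding protein, had 1.10 FPKM (0.980 to 1.22) without LPS. Its LPS value of 0.496 (0.0254 to 0.967) rests on only 4.44 implied fragments. The intervals barely miss each other, and the interval of the ratio, 0.173 to 1.17, includes 1. A fall of Mga (change -0.49) is thus not settled.

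Cofactors are read beside all counted genes, 8.54% of which were higher and 12.4% lower, with a median change of -0.24. Of 16 counted genes of the SIN3 and deacetylase corepressor, 1 rose (6.25%) and 1 fell (6.25%), shares that rest on 1 gene each. Intervals were separate for 12 (75%), near the 73.5% of all counted genes. The median change was -0.22, but 0.03 with median scaling and 0.19 with a filter at 5 FPKM. Sap30, a SIN3 subunit, rose from 110 to 243 FPKM, a call lost with TPM and with quantile normalisation. Ing2, which reads methylated histone H3, fell from 3.00 to 0.764, a call lost with quantile normalisation and when the pseudocount was 5. The scaffolds Sin3a and Sin3b were at 4.73 and 1.98 and at 113 and 179 FPKM, neither past the rule. Of 15 counted MYC coactivators 0 passed in either direction, though intervals were separate for 14 (93.3%, beside 73.5% of all counted genes). Their changes ran from -0.64 to 0.70 (median -0.15, but 0.11 with median scaling, 0.07 with quantile normalisation and 0.12 with a filter at 5 FPKM). Smarca4, of the same list, had no row with status OK.

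Of 18 counted regulators of MYC protein stability, 2 rose (11.1%) and 3 fell (16.7%), shares near the 8.54% and 12.4% of all counted genes (median -0.33). Pim1, a kinase known to stabilise MYC, rose from 8.99 (7.96 to 10.0) to 65.5 FPKM (62.8 to 68.2), a change of 2.74. Ppp2r5a, a phosphatase subunit known to direct MYC to degradation, rose from 13.4 to 48.2. Skp2, a ubiquitin ligase subunit that acts on MYC and drives the cell cycle, fell from 12.3 to 2.48. Aurka, a mitotic kinase, fell from 24.4 to 10.3, and the deubiquitinase Usp37 from 2.58 to 0.669. Both of these calls were lost with median scaling and when the pseudocount was 5, and that of Usp37 with quantile normalisation too. Fbxw7, the ligase subunit best known for MYC turnover, was at 0.946 (0.0130 to 1.88) and 0.897 FPKM (0.691 to 1.10) and, being under 1 in both libraries, was not counted.

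No gene of the lists widely used as MYC targets rose by the rule on the deposited scale, beside 8.54% of all counted genes. In lists of 26 and 30 counted genes that share amounts to only a few genes each. Of 26 counted ribosome biogenesis genes 0 rose and 2 fell (7.69%, beside 12.4% of all counted genes), with a median change of -0.12 beside -0.24 over all genes (0.14 with median scaling). These were Dkc1, the pseudouridine synthase of the nucleolus (62.2 to 25.3 FPKM), and Gnl3, nucleostemin (94.4 to 41.9), both within the rule after median scaling. Of 30 counted metabolic and growth genes 0 rose and 5 fell (16.7%, near the 12.4% of all counted genes; median -0.17). Changes were below 0 for 66.7% of them and for 64.2% of all counted genes. With median scaling 4 of them rose and the median was 0.12. The transferrin receptor gene Tfrc fell from 42.4 to 10.3, the nucleotide synthesis gene Prps2 from 8.05 to 2.54 and the monocarboxylate transporter gene Slc16a1 from 11.6 to 4.10, the last pair not with a pseudocount of 5. Odc1, the polyamine enzyme often used to read out MYC, was at 32.6 and 61.7 FPKM, a change of 0.90 and the highest of this list.

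Genes described as repressed by MYC went both ways. Of 10 counted, 4 rose and 4 fell, beside 8.54% and 12.4% of all counted genes (median 0.32, below 0 with no filter on low values). The kinase inhibitor gene Cdkn1a rose from 25.5 to 397 FPKM, the stress gene Gadd45b from 32.3 to 150 and Cdkn2b, another kinase inhibitor gene, from 0.727 to 4.81. The myeloid factor gene Cebpa fell from 14.0 to 3.04, Cdkn1b from 7.57 to 2.82 and the stress-responsive Ndrg1 from 70.3 to 31.7. Of these calls, Cdkn2b and Cdkn1b were lost with a pseudocount of 5, Cdkn1b and Ndrg1 after median scaling and Cdkn1b after quantile normalisation.

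Of 9 counted genes described as targets of MLX with MLXIP, 1 rose (11.1%) and 2 fell (22.2%), a difference of about 1 gene from the shares of all counted genes (median -0.32). Txnip, the glucose-induced arrestin gene that serves as the standard readout of MondoA, fell from 139 (134 to 143) to 67.2 FPKM (64.7 to 69.6), whereas its relative Arrdc4, a readout of the same kind, rose from 11.1 (9.59 to 12.6) to 24.8 (22.6 to 27.1). Both changes were near the rule (-1.04 and 1.09), and both calls were lost with a pseudocount of 5, that of Txnip also after median scaling and when only the highest transcript row was used, and that of Arrdc4 after rescaling to TPM. Pfkfb2, a regulator of glycolysis, fell from 2.05 to 0.179, a call lost when the pseudocount was 5. Among 8 other factors that bind the same E-box, 0 rose and 1 fell (12.5%), beside 8.54% and 12.4% of all counted genes. The median was 0.22, with its sign turned after rescaling to TPM. The factor that fell was Tfeb, which drives lysosomal genes, from 5.15 (4.39 to 5.91) to 0.943 (0.654 to 1.23), a call lost when the pseudocount was 5. Usf1 and Usf2 were at 11.7 and 17.4 and at 53.0 and 41.7 FPKM, with changes of 0.53 and -0.34.

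**Figure D5:**
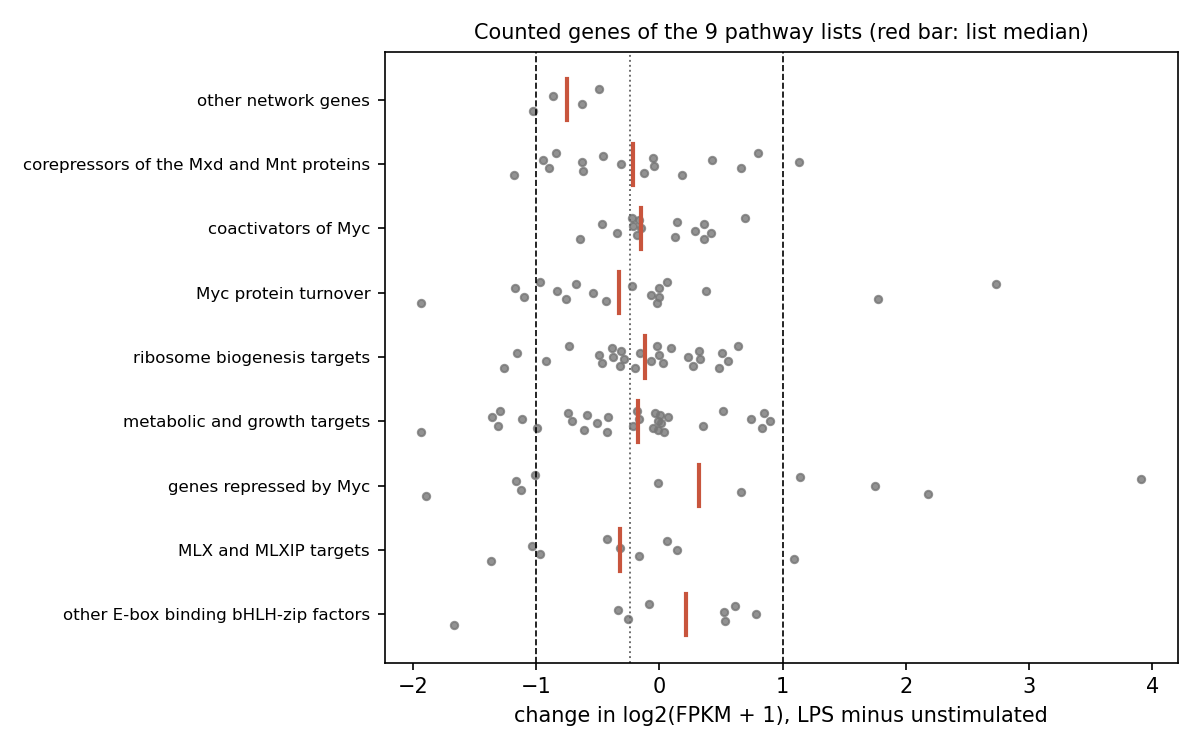
Change in log2(FPKM + 1), LPS minus unstimulated, of each counted gene (grey points) in the 9 pathway lists, with the list median (red bar), the size rule (dashed lines) and the median of all counted genes (dotted line). The points to the right of the upper rule include Cdkn1a (3.91) and Pim1 (2.74), and no ribosome biogenesis or metabolic target lies there. Of all counted genes, 8.54% lie past that rule.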

How the data were processed

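Each library's table, as deposited by the authors, gives FPKM with lower and upper bounds and a status. Per the submitters' processing notes they come from Cufflinks on build mm9, while the version, the aligner and the use of strand in counting were not given in the sources used here. Per the labels' protocols, the library kit was strand-specific and reads were 76 bases long. Rows were matched to symbols through a RefSeq name table of assembly GRCm38.p6 (97.6% of 28246 rows; others kept their ID). Rows not OK in both libraries (391; none of the 9 genes) and small RNA rows (727) were left out, and rows of a symbol were summed, half-widths in quadrature. Quadrature takes rows as independent, so intervals and implied fragments of genes with several rows are approximate. A half-width was read as 2 SD, which gives the implied fragments. Ratios have a 95% interval from both libraries, and none is given at 3 or fewer fragments. Coordinates of genes are the deposited mm9 loci, written 1-based with starts read as 0-based. The size rule is a description, not a test. Its calculation was checked on simulated counts, with large changes put into well expressed genes and counting error only. That check does not bear on calls at levels as low as that of Myc, or on differences between cultures. From each list, at most the 3 largest rises and 3 largest falls past the rule are named as such; further list genes were named after their values were seen. The genes and lists were chosen with earlier results of these data known. Python 3.11.15, pandas 2.3.3 and matplotlib 3.10.9 were used. Alternatives covered pseudocounts, filters, scaling, transcript rows and row status.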

Additional observations from a re-analysis of the deposited data

How the results depend on the processing

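With 1 library per group, no result could be recomputed without a replicate, and the intervals limit only counting and assignment error. No paired analysis was possible because each group has 1 library. Under the 9 alternatives none of the 4 called genes of the network changed sign. With a pseudocount of 5, 1 gene was higher (Mxd1) and 1 lower (Mxi1), in place of 2 and 2. With a filter at 5 FPKM only 6 of the 9 were counted, again with 1 higher and 1 lower, since Myc, Mnt and Mlxip fell below it. The number lower was 3 with a pseudocount of 0.1 or after rescaling to TPM, and the number higher 3 after median scaling. Myc made up 4.69% of the partner sum in the LPS library when only the highest transcript row of each gene was used, and 1.69% and 19.8% without Mxd3.

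Over the 9 pathway lists together, 8 of 136 counted genes were higher (5.88%, beside 8.54% of all counted genes) and 19 lower (14.0%, beside 12.4%). With a pseudocount of 5 these were 5 and 6, after median scaling 14 and 9, and after rescaling to TPM 29 were lower. Ribosome biogenesis genes called lower went from 2 to 0 after median scaling. Metabolic and growth genes called higher went from 0 to 4 after median scaling and 1 after quantile normalisation, and those called lower from 5 to 1 with a pseudocount of 5. For the other lists the numbers called lower ranged from 0 to 3 (network and locus, main value 1), 0 to 4 (corepressors, 1), 1 to 6 (protein stability, 3), 1 to 4 (genes repressed by MYC, 4), 0 to 3 (MLX targets, 2) and 0 to 1 (other E-box factors, 1), and those called higher from 0 to 2 (corepressors, 1), 2 to 4 (genes repressed by MYC, 4), 0 to 1 (MLX targets, 1) and 0 to 1 (other E-box factors, 0). With a filter at 5 FPKM, Pvt1, Ing2, Usp37, Cdkn2b and Pfkfb2 were no longer counted, and the list of other network genes had no counted gene and so no median. Of the 23 list genes named by the rule, 7 kept their call under all 9 alternatives. The cause of these shifts was not tested beyond what each setting does by construction.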
